A study of Mus musculus with 9 samples.

Results

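The aminoacyl-tRNA synthetase genes were followed through RNA-seq counts of primary neonatal mouse ventricular myocytes, the beating muscle cells of the newborn heart grown in culture. The members were the protein-coding rows of the count table whose symbol follows the naming of these enzymes, together with Eprs, Farsa, Farsb and Tarsl2. The rule gave 38 of the 55401 genes in the table. Of these, 21 encode enzymes of the cytosol and 17 encode enzymes of the mitochondrion. Gars and Kars make both forms from a single gene and were counted as cytosolic. Tarsl2 was also counted as cytosolic, since it is a paralog of Tars in spite of the last character of its symbol.

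The cells came from 1 day old wild-type C57BL/6J pups and were grown in DMEM with 10% FBS. Control cultures stayed in normal oxygen and complete medium. Hypoxia cultures were washed, moved to DMEM lacking both glucose and serum, and sealed with an AnaeroPack oxygen absorber for 6 h. The hypoxia + rSRGN cultures had the same medium and chamber with recombinant serglycin, a secretory granule proteoglycan, added at a dose that the labels do not give. Low oxygen and the change of medium therefore cannot be told apart in any comparison with control. Each group had 3 libraries, and the labels do not say whether these were separate cultures or litters, so the p-values measure the spread between these libraries, which may be technical.

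A synthetase joins an amino acid to its tRNAs, the step that sets which amino acid the ribosome inserts at a codon. The cytosolic enzymes supply the ribosomes that translate nuclear genes. A separate set of enzymes, encoded in the nucleus and imported, supplies the ribosomes inside mitochondria, which make core subunits of the respiratory chain. When a tRNA lacks its amino acid, the kinase GCN2 (gene Eif2ak4) phosphorylates eIF2, and the transcription factor ATF4 is then translated. Genes for many cytosolic synthetases are known targets of ATF4.

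The libraries held 21669017 to 22781557 assigned fragments in control, 16583985 to 18148474 in hypoxia and 16640239 to 20826701 in hypoxia + rSRGN. All 38 members passed the filter on low counts, as did 16762 genes in all. The cardiomyocyte label was checked against 13 markers, none of which was at 0 in any group. Their summed level was 46711 to 57261 CPM (fragment counts scaled by TMM to a common library size) in control, 4061 to 6317 in hypoxia and 8048 to 8652 in hypoxia + rSRGN, and all 13 were lower in hypoxia. The summed level of 9 fibroblast markers was 8818 to 10414 CPM in control, 17602 to 20369 in hypoxia and 19373 to 19980 in hypoxia + rSRGN, and 7 of the 9 were higher in hypoxia. The 8 macrophage markers summed to 227 to 243 CPM in control and 24.4 to 27.9 in hypoxia, and 7 of the 8 were lower. Of 7 endothelial markers 5 were lower, with sums of 72.1 to 102 CPM in control and 49.5 to 64.2 in hypoxia. Of 6 smooth muscle and pericyte markers 2 were higher and 1 was lower, with sums of 1462 to 1736 CPM in control and 2158 to 2478 in hypoxia. Markers counted as higher or lower met the rule for a call given below. That rule was met by 26.4% of all genes upward and 25.1% downward. The counts of the smooth muscle and pericyte list were near these shares. In bulk RNA, fewer cells of a type and less RNA per cell cannot be told apart. The part of these shifts in the synthetase results was not tested.

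Most called cytosolic genes were higher in hypoxia and most called mitochondrial genes were lower. A gene was called when the edgeR quasi-likelihood test gave an adjusted p below 0.05 and the fold change was at least 1.5. Against control, 7 cytosolic genes were higher, 1 was lower and 13 were not called. Of the mitochondrial genes, 6 were lower, 1 was higher and 10 were not called. Among all genes tested, 51.6% were called in this comparison, 26.4% higher and 25.1% lower, so the 15 called members (39.5% of the family) were not more than that background, and the difference between the compartments was not itself tested. The median log2 fold change was 0.30 over the cytosolic genes and -0.45 over the mitochondrial genes, against 0.05 over all genes tested. Values were above 0 in 19 of the 21 cytosolic genes and below 0 in 15 of the 17 mitochondrial genes. With no fold limit, 14 cytosolic genes were higher (36.8% of all genes) and 15 mitochondrial genes were lower (34.1% of all genes).

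**Figure D1:**
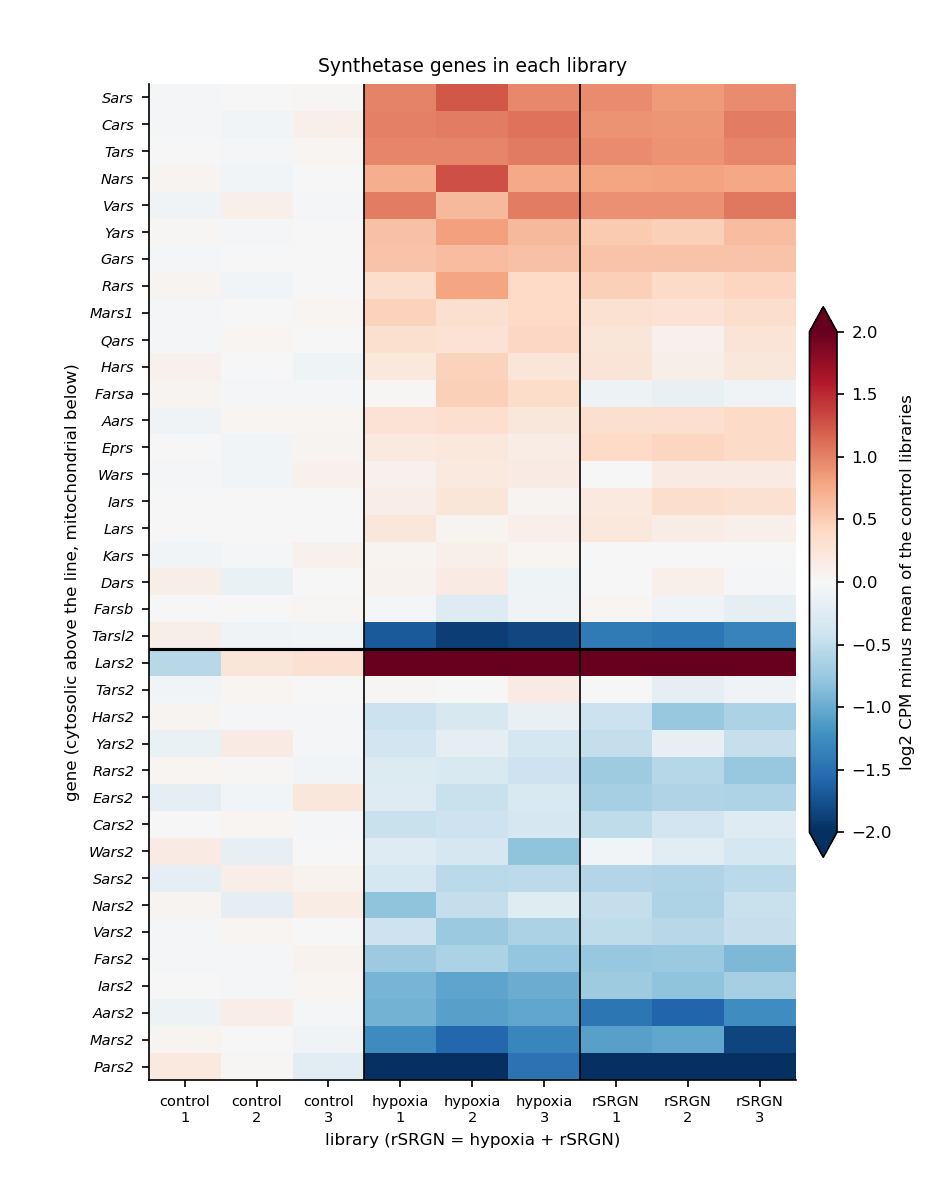
Heat map of 37 synthetase genes (rows) in the 9 libraries (columns), coloured by log2 CPM minus the mean of the 3 control libraries, with red above and blue below control and the scale ending at 2 on either side. Most cytosolic rows, above the line, are red in all 6 hypoxic libraries and most mitochondrial rows are blue, with Tarsl2 and Lars2 as the strongest exceptions.

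The 7 cytosolic genes that rose were Sars, Cars, Tars, Nars, Vars, Yars and Gars, which charge serine, cysteine, threonine, asparagine, valine, tyrosine and glycine. Sars (chr3:108424865-108445209, GRCm38, minus strand), whose product loads serine onto both serine and selenocysteine tRNAs, was at 152, 158 and 159 CPM in control and at 310, 369 and 304 CPM in hypoxia. All hypoxia libraries lay above all control libraries, at 2.10-fold the control level (log2 fold change 1.07 ± 0.08 SE, adjusted p = 4.12e-11). Cars (chr7:143557230-143600090, minus strand) was at 60.0, 59.7 and 66.2 CPM in control and at 125, 126 and 131 CPM in hypoxia. The groups did not overlap, and the log2 fold change was 1.04 ± 0.07 (SE, adjusted p = 2.51e-11).

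Tars (chr15:11382301-11399665, minus strand) rose evenly. It was at 93.8, 92.8 and 97 CPM in control and at 186, 186 and 194 CPM in hypoxia. The log2 fold change was 1.00 ± 0.07 (SE, adjusted p = 1.03e-11). Nars, Vars and Yars had log2 fold changes of 0.94, 0.91 and 0.69. Hypoxia replicate 2 stood apart from the other two for several cytosolic genes. Nars was at 569 CPM in that library and at 387 and 392 CPM in the others, and Rars was at 152 CPM against 113 and 117 CPM. Vars went the other way there, at 99.1 CPM against 128 CPM in each of the others. Without this library the log2 fold change of Nars was 0.74 and that of Sars 0.97, and both remained called.

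Gars (chr6:55038007-55079500, plus strand), the glycine enzyme of cytosol and mitochondrion, had a narrow spread within each group. Its level was 205, 209 and 208 CPM in control and 309, 319 and 311 CPM in hypoxia. The groups were well apart, yet the log2 fold change of 0.59 ± 0.06 (SE, adjusted p = 3.46e-08) was just past the fold limit, and the call was lost in several alternative fits. Kars, the other gene that serves both compartments, was at 103 ± 5.7 CPM in control and 107 ± 2.9 CPM in hypoxia (SD, n = 3) and did not pass the test (log2 fold change 0.07).

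Tarsl2 (chr7:65644898-65692091, plus strand) went the other way. This second cytosolic threonyl-tRNA synthetase was at 44.3, 38.8 and 39.3 CPM in control and at 12.7, 11.1 and 11.5 CPM in hypoxia. No hypoxia library came near a control library, and the log2 fold change was -1.79 ± 0.10 (SE, adjusted p = 6.95e-13). Tars and Tarsl2, paralogs that charge the same tRNAs, thus changed in opposite directions. Farsb was the only other cytosolic gene below 0 (log2 fold change -0.11), whereas Farsa, which encodes the partner subunit of the same phenylalanine enzyme, was at 0.30, and neither was called.

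The 7 cytosolic genes called higher belonged to both structural classes of the enzymes, and none of them encodes an enzyme of the multi-synthetase complex. The complex is a large particle in which several cytosolic synthetases are held together by scaffold proteins. None of its 8 enzyme genes (Dars, Eprs, Iars, Kars, Lars, Mars1, Qars, Rars) was called, where 26.4% of all genes were higher and 25.1% lower. Their median log2 fold change was 0.17, with all 8 above 0, and with no fold limit Eprs (0.19), Qars (0.34), Mars1 (0.40) and Rars (0.53) were higher. Rars passed the fold limit by library size alone (0.59) and without hypoxia replicate 1 (0.60). Leaving out each library in turn, its value ranged from 0.38 to 0.60. Of the 13 cytosolic genes outside the complex, 7 were higher and 1 was lower, with a median of 0.59. Of the 9 class I cytosolic genes 3 were higher, and of the 11 class II genes 4 were higher and 1 was lower. Eprs holds a domain of each class and was counted in neither. The difference between these subgroups was not tested.

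From general knowledge, 13 of the cytosolic genes were listed as reported ATF4 targets. Of these 7 were higher (26.4% of all genes) and none lower, the hypoxia libraries lay above all control libraries in all 13, and the median log2 fold change was 0.59. Of the other 8 cytosolic genes, 1 was lower and none higher, with a median of 0.18, and the difference between these groups of genes was not tested. In all genes tested, the hypoxia libraries lay wholly above control in 37.7%.

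Since several of these genes moved together, their promoters were read from RefSeq on GRCm38.p6, in windows from 250 bases before to 50 bases after each start site. Of the 38 members 28 had a promoter in the table, 14 cytosolic and 14 mitochondrial. The letters TGATGNAA, the core of the C/EBP-ATF response element to which ATF4 dimers bind, were searched on both strands. They were found in 5 of the 14 cytosolic members (Aars, Gars, Iars, Tars and Yars) and in 0 of the 14 mitochondrial members. They were held by 4.51% of all genes with a promoter listed, and of all 32851 promoters of that length 3.97% did. A window of 30 bases around 1 match is printed below for each of these members, each on the strand of its gene, with the match in capitals.
Gars, chr6:55037960-55037989, plus strand: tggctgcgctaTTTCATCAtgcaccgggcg
Tars, chr15:11399655-11399684, minus strand: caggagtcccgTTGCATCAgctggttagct
Yars, chr4:129189895-129189924, plus strand: acgagctcagcTGATGCAAcccgacgggac
Iars, chr13:49682126-49682155, plus strand: cactgtcagtaTTGCATCAcctccagacgc
Aars, chr8:111033840-111033869, plus strand: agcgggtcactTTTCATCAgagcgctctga

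The match read as spelled in Yars and as the reverse complement in the others. It began 30 bases before the start site in Gars and 15 bases before it in Tars. Aars, Iars and Yars held a match 9, 7 and 3 bases after the start. Gars, Tars and Yars were called higher in hypoxia, whereas Aars (log2 fold change 0.29) and Iars (0.15) were not called. The E-box CACGTG was found in 4 of the 14 cytosolic members and in 1 of the 14 mitochondrial members, against 8.09% of all genes and 7.15% of all promoters. Sars and Cars had the largest rises of the cytosolic genes, at log2 fold changes of 1.07 and 1.04 that lie within their standard errors. Sars had a promoter in the table with neither set of letters. Cars, Nars and Vars had no promoter in the table. A match in these letters describes the sequence, and binding was not measured.

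**Figure D2:**
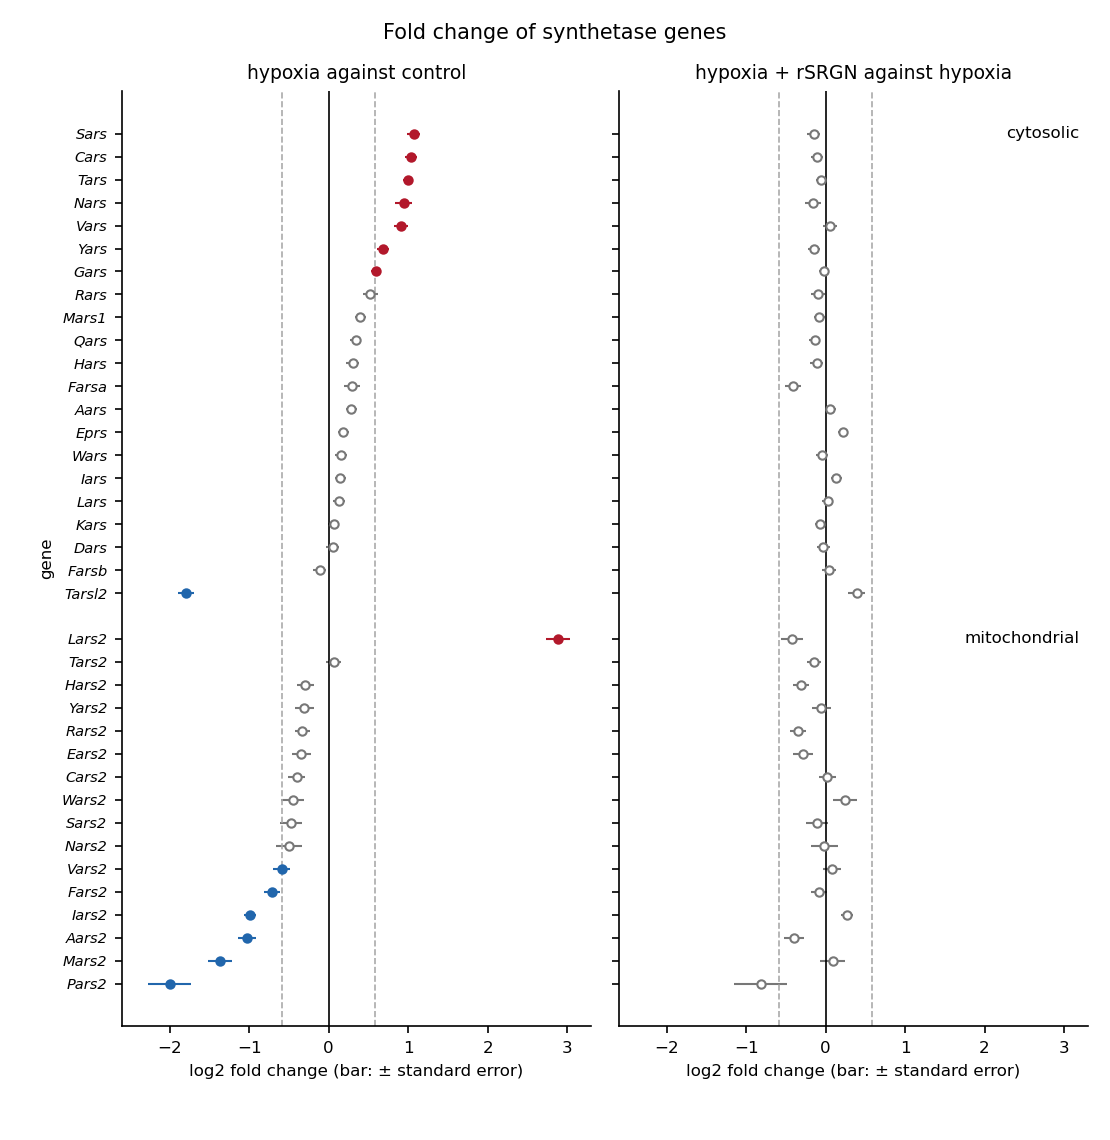
Log2 fold change of 37 synthetase genes (points, with bars of 1 standard error) for hypoxia against control (left) and hypoxia + rSRGN against hypoxia (right), with called genes filled, and dashed lines at a fold of 1.5. On the left 8 genes are called higher and 7 lower, and on the right none of the genes shown is called.

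Among the mitochondrial enzymes the largest fall was that of Pars2 (chr4:106651069-106655282, plus strand), which charges mitochondrial proline tRNA. It was at 7.68, 6.86 and 5.80 CPM in control and at 1.61, 1.04 and 2.43 CPM in hypoxia, from 120 to 171 fragments per control library and 18 to 42 per hypoxia library. The groups did not overlap, and the log2 fold change was -2.0 ± 0.27 (SE, adjusted p = 9.02e-07). Its cytosolic counterpart is the proline-charging domain of Eprs, a fused enzyme for glutamate and proline, and Eprs was at 0.19.

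Mars2 (chr1:55237177-55248470, plus strand) charges the mitochondrial methionine tRNA, which also starts mitochondrial translation. It was at 25.9, 25.2 and 23.9 CPM in control and at 10.5, 8.44 and 10.1 CPM in hypoxia. The groups were far apart (log2 fold change -1.37 ± 0.15 SE, adjusted p = 4.52e-08). Aars2 (chr17:45506841-45520843, plus strand), the mitochondrial alanine enzyme, whose human counterpart is known for its link to infantile cardiomyopathy, was at 24.8, 28.9 and 25.8 CPM in control and at 13.8, 12.4 and 12.9 CPM in hypoxia. All hypoxia libraries lay below all control libraries, at a log2 fold change of -1.02 ± 0.11 (SE, adjusted p = 4.56e-08). Iars2, Fars2 and Vars2 were also called lower, at -0.99, -0.71 and -0.59. The call of Vars2 was lost by library size alone (-0.52) and without hypoxia replicate 2 (-0.52) or 3 (-0.57).

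The remaining mitochondrial genes fell less. Nars2, Sars2, Wars2, Cars2, Ears2, Rars2, Yars2 and Hars2 had log2 fold changes from -0.50 to -0.29, all with an adjusted p below the threshold and a fold below the limit. Tars2 did not follow them. It was at 32.9 ± 1.0 CPM in control and 34.4 ± 2.3 CPM in hypoxia (SD, n = 3), with overlapping libraries. In 15 of the 17 mitochondrial genes every hypoxia library lay below every control library, which was the case in 35.3% of all genes tested. Strand was not used in the counting, and Iars2 shared 24.2% of its exon bases with genes on the opposite strand, so its value is uncertain. The same holds to a lesser degree for Fars2 (10.7%). Aars shared 15.1% of its exon bases, with a gene on each strand, and is uncertain for that reason.

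Taking the enzymes by amino acid, 18 pairs of a cytosolic and a mitochondrial gene covered 17 amino acids, with Tars as the cytosolic threonine gene. The cytosolic gene had the higher log2 fold change in 17 of the 18 pairs, and the median difference was 1.00. The difference was widest for proline (Eprs over Pars2, 2.18), methionine (Mars1 over Mars2, 1.76) and serine (Sars over Sars2, 1.54). It was narrower for glutamate (Eprs over Ears2, 0.53) and histidine (Hars over Hars2, 0.60). Leucine was the exception, with Lars at 0.13 and Lars2 at 2.89. Tarsl2 was not paired, and set against Tars2 it differs in the same direction as leucine, by -1.86.

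**Figure D3:**
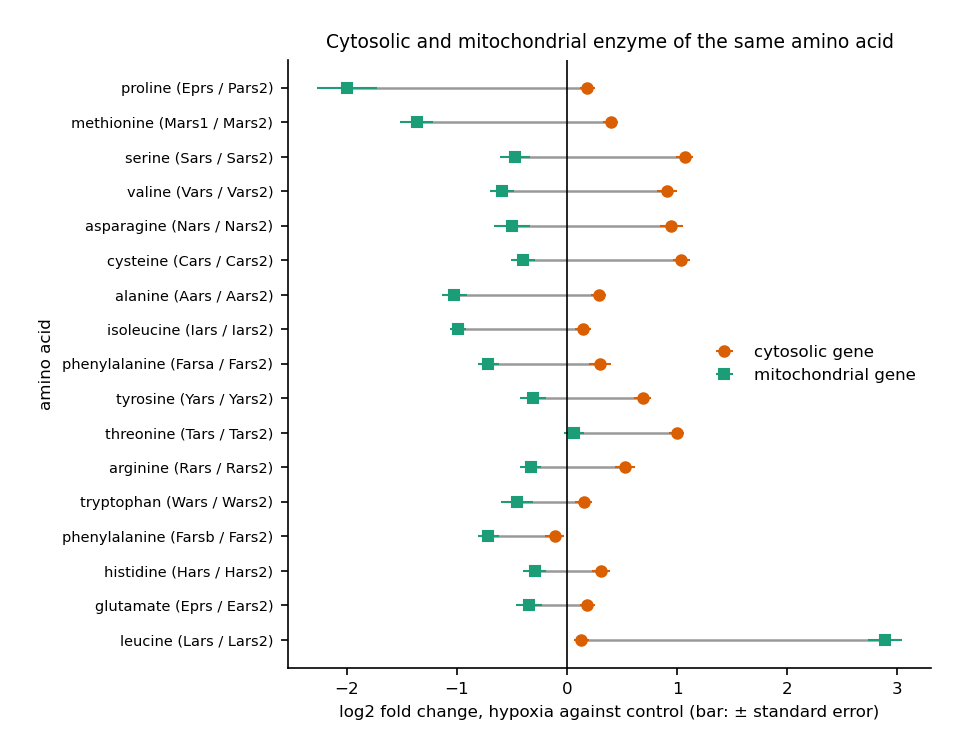
Log2 fold change for hypoxia against control of the cytosolic gene (circles) and the mitochondrial gene (squares) of the same amino acid in 17 pairs, with bars of 1 standard error and a line joining the pair. In every pair shown but leucine the circle lies to the right of the square; Tarsl2 is in no pair and is not drawn.

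Lars2 (chr9:123366927-123462666, plus strand), the mitochondrial leucine enzyme, had the largest log2 fold change of the members in hypoxia against control, and it was the 1 mitochondrial gene called higher in that comparison. It was at 188, 327 and 342 CPM in control, at 1915, 2482 and 1951 CPM in hypoxia, and at 1530, 1634 and 1568 CPM in hypoxia + rSRGN. Control replicate 1 was lower than the other controls, and every hypoxic library was several-fold above every control library. The log2 fold change for hypoxia against control was 2.89 ± 0.15 (SE, adjusted p = 1.69e-13), and 2.64 without control replicate 1.

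Ribosomal RNAs and 7SK RNA, which a poly(A) selection is meant to remove, moved in the same libraries. CT010467.1, a ribosomal RNA gene in the annotation, was at 1713, 3660 and 4010 CPM in control and at 10302, 9463 and 7167 CPM in hypoxia. The mitochondrial ribosomal RNAs mt-Rnr1 and mt-Rnr2 had log2 fold changes of 3.81 and 3.3, and the small nuclear RNA Rn7sk 5.65. Control replicate 1 was also the lowest control library for CT010467.1 and for Rn7sk, whereas mt-Rnr1 and mt-Rnr2 were lowest in control replicate 2. Among the hypoxia libraries, Lars2 was highest in replicate 2, CT010467.1, mt-Rnr1 and mt-Rnr2 in replicate 1 and Rn7sk in replicate 3. No run of 25 bases of the 3894-base Lars2 transcript occurred in mt-Rnr1, mt-Rnr2 or CT010467.1. The counts of Lars2 cover 11089 merged-exon bases, and the exons outside that transcript were not searched for such runs. Other ribosomal RNA sequences were not searched for them either, so the search cannot show whether Lars2 gathers ribosomal fragments. A stretch of 72 bases in the Lars2 3′ untranslated region (chr9:123462048-123462119) was 98.6% identical to the antisense gene Gm15564. That gene was at 0.18 CPM in control, 1.17 CPM in hypoxia and 0.63 CPM in hypoxia + rSRGN. The untranslated region also matched AA474408 over 196 bases (80.1% identity) and Ifitm10 over 70 bases (82.9%). AA474408 was at 0.72, 1.24 and 2.06 CPM in the same groups. The part of these RNAs in the Lars2 value was not tested.

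**Figure D4:**
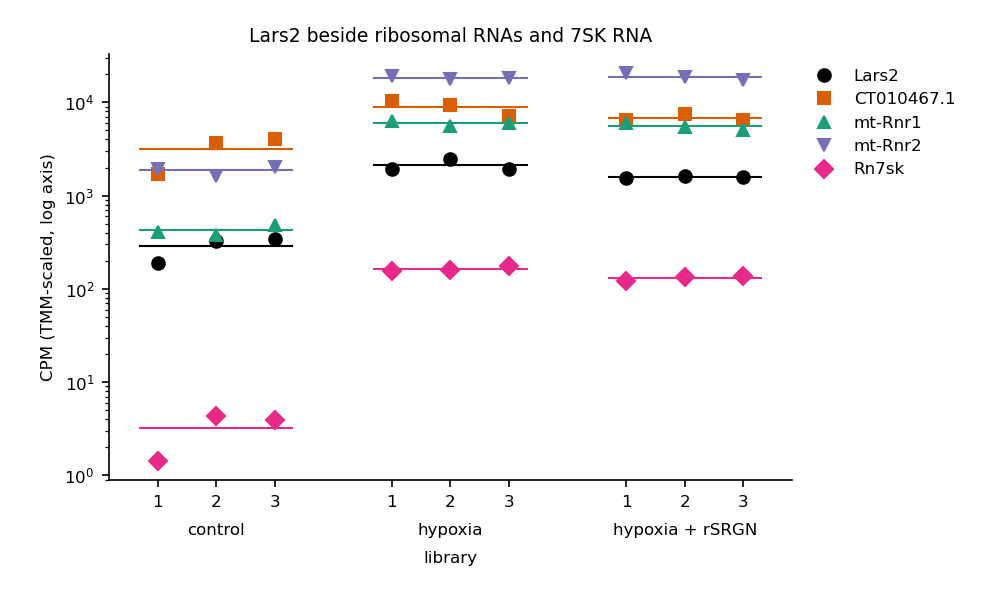
CPM on a log axis of Lars2, the ribosomal RNA gene CT010467.1, the mitochondrial ribosomal RNAs mt-Rnr1 and mt-Rnr2 and the small nuclear RNA Rn7sk in each of the 9 libraries, with a line at the mean of each group. All 5 RNAs are higher in the 6 hypoxic libraries than in the 3 control libraries, and Lars2, CT010467.1 and Rn7sk are lowest in control replicate 1.

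Levels between genes were compared per length, as TPM (counts over the deposited gene length, scaled to a common total). In control, Gars was the most abundant synthetase at 199 ± 2.4 TPM, followed by Nars at 160 ± 7.9 and Sars at 90.8 ± 1.2 (SD, n = 3). Lars2 ranked 7 in control at 76.8 ± 22 TPM and ranked 1 in hypoxia at 520 ± 46 TPM. Nars (280 ± 47 TPM) and Gars (275 ± 11 TPM) then followed and did not differ beyond their spread. Over all libraries together the least abundant genes were Nars2, at 3.98 ± 0.46 TPM in control, and Pars2, at 6.55 ± 1.01 TPM in control and 1.52 ± 0.68 TPM in hypoxia. In hypoxia Mars2 (2.36 TPM) was below Nars2 (2.59 TPM), by less than their spread.

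Nars2 (chr7:96951505-97064758, plus strand), the mitochondrial asparagine enzyme, was at 9.62, 8.04 and 10.2 CPM in control, at 5.32, 6.65 and 7.82 CPM in hypoxia and at 6.67, 6.02 and 6.81 CPM in hypoxia + rSRGN. The hypoxia libraries lay below control and were wider than those with rSRGN. The asparagine pair showed the widest gap in level, the log2 ratio of Nars to Nars2 TPM being 5.33 in control and 6.76 in hypoxia. TPM was not TMM-scaled, so sums of TPM are not corrected for a shift in RNA composition between groups. Summed over members, the cytosolic genes were at 1414 ± 18 TPM in control and 1848 ± 10 TPM in hypoxia. The mitochondrial genes without Lars2 were at 235 ± 4.0 TPM in control and 147 ± 11 TPM in hypoxia, whereas with Lars2 the sum rose from 312 ± 23 to 667 ± 36 TPM (SD, n = 3), so the direction of this sum is set by 1 gene.

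The genes around the synthetases were read from lists of the pathway, against the 26.4% of all genes that were higher and the 25.1% that were lower. Of 3 scaffold proteins of the multi-synthetase complex, Eef1e1 (log2 fold change 1.22) and Aimp1 (0.69) were higher in hypoxia and Aimp2 (-0.15) was not called. Of 4 genes that finish mitochondrial tRNA charging, 3 were lower. These were Gatb (-1.66), Qrsl1 (-1.40) and Gatc (-0.75), the subunits of the amidotransferase that makes mitochondrial glutaminyl-tRNA, for which mitochondria have no direct synthetase. Of 5 genes of the selenocysteine tRNA route 4 were lower, led by Sephs2 (-1.17), Sepsecs (-1.15) and Pstk (-0.80). None of 5 genes of tRNA proofreading and export was called.

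Among 5 genes that sense uncharged tRNA or act in the response to it 3 were higher, namely Atf4 (1.39), Impact (0.94), an inhibitor of GCN2, and Eif2s1 (0.74), which encodes the alpha subunit of eIF2. The sensor kinase gene Eif2ak4 (0.37) and Gcn1 (-0.32), whose product activates that kinase, were not called. Of 25 ATF4 targets other than synthetases, 19 were higher and 2 lower, with a median log2 fold change of 1.28. Both lists stand against 26.4% of all genes higher and 25.1% lower. Atf3 (5.21), a stress-induced transcription factor, Cth (2.21), which makes cysteine from cystathionine, and Chac1 (2.14), which degrades glutathione, rose most. Vldlr (-1.44) and Ddit4 (-1.08) were the 2 that fell. The 7 cytosolic synthetases called higher, at log2 fold changes from 0.59 to 1.07, all lay below this median.

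**Figure D5:**
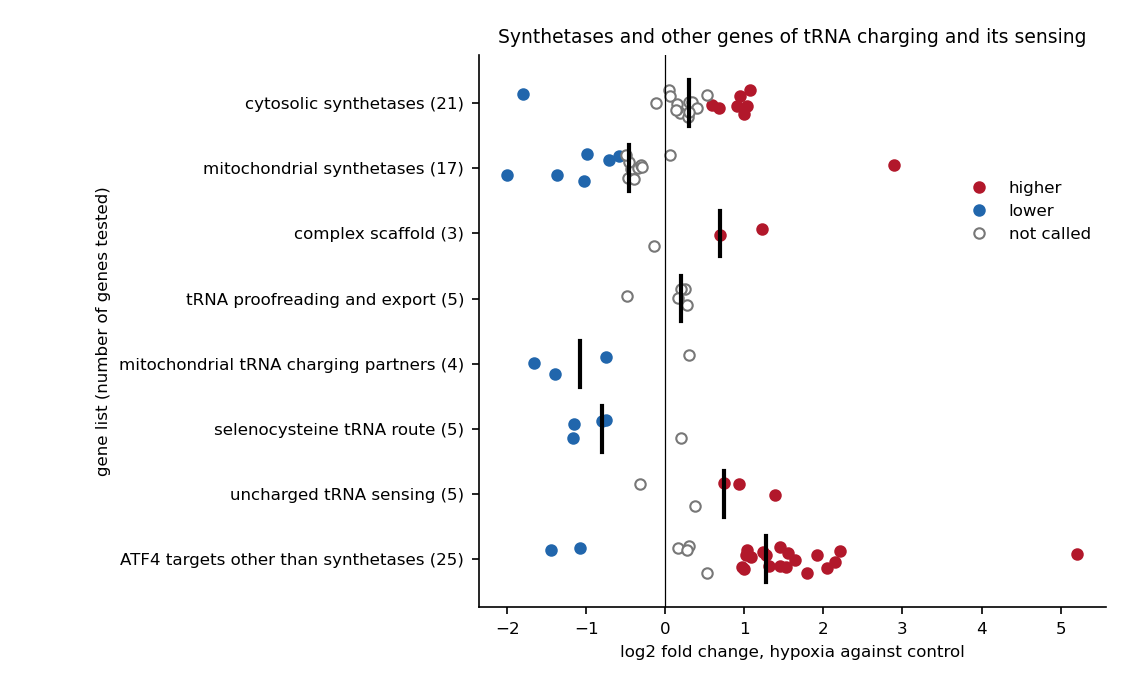
Log2 fold change for hypoxia against control of the genes of each list, 1 point per gene, filled red where called higher, filled blue where called lower and open where not called, with a black bar at the list's median; the vertical scatter within a list has no meaning. Cytosolic synthetases and ATF4 targets lie mostly right of 0, and mitochondrial synthetases and their charging partners mostly left.

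The comparison of hypoxia + rSRGN with hypoxia asks what the addition of the rSRGN preparation changed. In hypoxia + rSRGN against hypoxia, 0 of the 38 members were called by edgeR or by DESeq2, in a comparison in which 3.13% of all genes tested were called, 2.27% higher and 0.859% lower. At an unadjusted p below 0.05 with no fold limit there were 11 members, where 29.4% of all genes tested passed. The median log2 fold change was -0.06 over the cytosolic genes and -0.11 over the mitochondrial genes, against -0.03 over all genes tested. In 32 members the 95% interval of the log2 fold change lay wholly within a fold of 1.5 in either direction. Those of 6 members reached beyond it, among them Pars2, Lars2, Aars2, Farsa and Tarsl2.

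With no fold limit 8 members had an adjusted p below 0.05. Higher with rSRGN were Tarsl2 (log2 fold change 0.39, adjusted p = 0.0162), Iars2 (0.27, adjusted p = 0.0142) and Eprs (0.22, adjusted p = 0.0285), where 10.5% of all genes were higher. Tarsl2 was at 15.3, 15 and 16.1 CPM with rSRGN, above each hypoxia library and well below each control library. Lower were Farsa (-0.41), Lars2 (-0.42), Aars2 (-0.40), Rars2 (-0.34) and Hars2 (-0.31), where 6.11% of all genes were lower. Aars2 was at 9.65, 8.77 and 11.2 CPM, below the hypoxia libraries, so its distance from control was wider with rSRGN than without.

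Pars2 had the largest difference in size. It was at 1.25, 0.915 and 0.739 CPM with rSRGN, from 14 to 21 fragments per library, and overlapped with hypoxia (log2 fold change -0.81 ± 0.33 SE, adjusted p = 0.1). Without hypoxia replicate 2, its lowest hypoxia library, the value was -1.06 and it was called (adjusted p = 0.0231). Leaving out each library in turn, the value ranged from -1.06 to -0.47. The 7 cytosolic genes that had risen in hypoxia had log2 fold changes between -0.16 and 0.06 with rSRGN. Gars was at 310, 307 and 307 CPM and did not separate from hypoxia (95% interval of the log2 fold change -0.16 to 0.11). Of the 13 cardiomyocyte markers 11 were higher in the same comparison, where 2.27% of all genes were higher and 0.859% lower. Of the other markers, Tcf21 (-0.76) of the 9 fibroblast markers was lower and Kdr (0.93) of the 7 endothelial markers was higher. Of the 6 smooth muscle and pericyte markers 1 was higher, and no macrophage marker was called. Slc7a1, an arginine and lysine transporter, was the 1 of 25 ATF4 targets that was higher (0.60), near the share of all genes. Of the 4 charging partners Mtfmt, which formylates the initiator methionyl-tRNA of mitochondria, was lower (-0.66).

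Hypoxia + rSRGN was also set against control, which shares its control libraries with the first comparison. Here 16 members were called, where 48.8% of all genes were, 24.1% higher and 24.7% lower. Sars (0.92), Cars (0.93), Tars (0.94), Vars (0.96) and Nars (0.78) were higher among the cytosolic genes, and Tarsl2 (-1.40) was lower. Gars and Yars, at 0.57 and 0.54, fell short of the fold limit. Lars2 (2.46) was the 1 mitochondrial gene that was higher. The 9 mitochondrial genes that were lower included Pars2 (-2.81), Aars2 (-1.42), Mars2 (-1.28), Fars2 (-0.80), Iars2 (-0.72), Rars2 (-0.68), Ears2 (-0.63) and Hars2 (-0.60). Rars2, Ears2 and Hars2 were not called in hypoxia without rSRGN, and Vars2 was called there and not here, but none of these genes was called between the hypoxic groups. The call of Hars2 was lost by library size alone (-0.56) and without control replicate 1 (-0.58) or hypoxia + rSRGN replicate 2 (-0.53), and that of Ears2 by library size alone (-0.58) and without control replicate 3 (-0.52). The median log2 fold change was 0.32 over the cytosolic genes and -0.60 over the mitochondrial genes.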

How the data were processed

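The deposited table holds the authors' unscaled counts of fragments for each gene and, as another unit, a merged-exon length in bases, used here for TPM. The file header names featureCounts 2.0.1, paired-end counting over exons, GENCODE release M25 (GRCm38) and no strand option; HISAT2 is named in the submitters' processing notes without a version. RNA was poly(A)-selected and sequenced on an Illumina instrument. All 9 columns of counts were used and 0 were unused. Low counts were removed with filterByExpr, and the rest were TMM-scaled and tested over all 9 libraries with edgeR 4.0.16 (R 4.3.3; glmQLFit, Benjamini-Hochberg adjustment), and the step was tested on simulated data. DESeq2 1.42.0 was an alternative. Standard errors are the log2 fold change over the square root of F. Similarity of Lars2 was searched with BLAST 2.17.0 and shared words of GENCODE release M21 transcripts.

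The members and lists were chosen with earlier results of these data known. Values per library are given for the 4 called members with the largest change in each compartment, the 2 most and 2 least abundant members and Tarsl2, and from the other lists the 3 called genes with the largest change were named. Nars, Rars, Vars, Kars, Tars2 and Iars2 values, the ATF4 targets that fell and the RNAs beside Lars2 were chosen after their values were seen. A single member is counted in all totals and medians and is not reported here by name or drawn on its own row. The paper's methods do not describe these cultures, so only its style was followed.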

Additional observations from a re-analysis of the deposited data

How the results depend on the processing

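No direction of a compartment's median and no call of a member reversed under any alternative. With no fold limit, 31 members were called for hypoxia against control (14 cytosolic higher, 15 mitochondrial lower), 8 for hypoxia + rSRGN against hypoxia (2 cytosolic higher, 4 mitochondrial lower, with 2790 of all genes) and 30 for hypoxia + rSRGN against control (14 and 14). With an unadjusted p and the same fold limit, 1 member, a mitochondrial gene that was lower, was called for hypoxia + rSRGN against hypoxia, with 899 of all genes. By library size alone the cytosolic and mitochondrial medians were 0.37 and -0.39 for hypoxia against control and 0.37 and -0.56 for hypoxia + rSRGN against control, and with a filter of at least 1 count they were 0.25 and -0.51, and 0.28 and -0.64. Under DESeq2 and under RLE scaling the cytosolic median for hypoxia + rSRGN against hypoxia was -0.026.

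Leaving out each library in turn gave 13 to 16, 0 to 1 and 15 to 17 members called in the comparisons of hypoxia with control, of rSRGN with hypoxia and of rSRGN with control, and 8496 to 8832, 321 to 699 and 8028 to 8184 of all genes. The 321 came without hypoxia replicate 3. Cytosolic genes called higher were 6 to 8, 0 to 0 and 5 to 5, and mitochondrial genes called lower were 5 to 7, 0 to 1 and 8 to 10. Cytosolic medians ranged over 0.26 to 0.35, -0.076 to -0.022 and 0.29 to 0.33, and mitochondrial medians over -0.49 to -0.43, -0.15 to -0.10 and -0.67 to -0.56.

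For hypoxia against control the call of Gars was lost under DESeq2 and RLE scaling (0.57 in both), with a filter of at least 1 count (0.54), in a fit of the compared groups alone (0.58), and without control replicate 1 (0.56), control replicate 2 (0.58) or hypoxia replicate 2 (0.58). Vars2 was lost by library size alone (-0.52) and without hypoxia replicate 2 (-0.52) or 3 (-0.57). Rars was gained by library size alone (0.59) and without hypoxia replicate 1 (0.60), Sars2 without control replicate 1 (-0.59), and Nars2 without control replicate 2 (-0.61) or hypoxia replicate 3 (-0.64). For hypoxia + rSRGN against control, Hars2 and Ears2 lost and Sars2, Nars2, Gars and Yars gained a call in 1 or more alternatives.

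Same-numbered libraries deviated from their group means with correlations of -0.04 to 0.02 over all genes, so the libraries were not paired. Such values can reflect counting noise and cannot show whether same-numbered libraries shared a culture, litter or preparation. With the replicate block 15, 0 and 16 members were called, as without it. Lars2 left out, and a fit without ribosomal RNA, 7SK, mitochondrial genes and Lars2, were chosen after seeing the data; for hypoxia against control both left 6 mitochondrial genes lower and 0 higher, and in the latter Gars was not called (0.58). The depth limits Pars2 most, with 14 to 42 fragments in each hypoxic library, and fragments in shared exon bases cannot be assigned with certainty in the 15 members that overlap another gene.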
